A study of Mus musculus with 4 samples.

Results

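Transcript levels of 9 transcription factors known for driving or marking the transition from epithelium to mesenchyme were examined in mouse embryonic fibroblasts (MEFs) with and without inositol hexakisphosphate kinase 1 (Ip6k1). The 9 genes, Snai1, Snai2, Twist1, Twist2, Zeb1, Zeb2, Prrx1, Prrx2 and Foxc2, were found by gene name among the 27827 gene names of the array, and they were represented by 18 of its 41174 probes. Each genotype, Ip6k1+/+ and Ip6k1-/-, had 2 MEF lines. Each line came from 1 embryo at stage E14, all 4 embryos belonged to the same litter of a cross between heterozygous parents, and every line, controls included, had been immortalised with SV40 large T antigen, so that a line is 1 embryo and 1 immortalisation. RNA from growing cells, taken after thawing and a pair of passages, was labelled with Cy3 and hybridised to 1 single-colour Agilent array per line, with all 4 arrays on 1 slide. The study asked which transcripts change when Ip6k1, an enzyme that makes inositol pyrophosphates, is missing. In these bulk samples, fewer cells expressing a gene and less RNA per cell cannot be told apart.

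In an epithelial to mesenchymal transition, epithelial cells lose their junctions and polarity and gain the motile habit of mesenchyme. Zinc finger repressors of the Snail family (Snai1, Snai2) and the Zeb family (Zeb1, Zeb2) bind E-box sequences in epithelial genes such as Cdh1, which encodes E-cadherin, and silence them. Twist1 and Twist2 are basic helix-loop-helix (HLH) factors that act as dimers with E proteins, and Prrx1, Prrx2 and Foxc2 are homeodomain and forkhead factors of embryonic mesenchyme. Fibroblasts are mesenchymal cells already, and MEFs from a whole embryo descend from several mesenchymal territories, in which these factors are expressed to different extents.

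A level is given throughout as log2 of the probe's processed signal minus the 75th percentile of the signal on the same array, so that 0 is that percentile itself, and it is compared between lines for the same probe only. A probe is called measured in a line where the scanner software marked it as well above background. Differences are Ip6k1-/- minus Ip6k1+/+ on this log2 scale, with the standard error (SE) of limma.

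The probes that carry the results below are shown as DNA, 5′ to 3′, with positions in mouse build mm9 as the array file gives them. For Prrx1, 3 of the 60-base probes gave the same pattern across lines, and they are printed whole because they sample separate stretches of the gene, at chr1:165191982-165192041, chr1:165187974-165188033 and chr1:165178384-165178443 on the minus strand. Capitals mark the stop codon that ends the longest open reading frame of the last of them, after 52 bases, while the first and second probe have 1 frame each that is open throughout.
Prrx1 A_52_P483713: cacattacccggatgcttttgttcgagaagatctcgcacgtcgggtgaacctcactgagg
Prrx1 A_51_P209778: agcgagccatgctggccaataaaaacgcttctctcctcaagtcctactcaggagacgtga
Prrx1 A_51_P209771: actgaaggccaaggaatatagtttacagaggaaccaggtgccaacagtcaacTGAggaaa

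For 5 of the genes with 1 probe, and for a pair of Zeb2 probes that gave opposite patterns, the first 30 bases of the probe are shown. Every value of those 5 genes rests on 1 oligonucleotide. The Zeb2 probes differ in where they lie and in brightness, with means over the lines of 0.24 (A_52_P596008) and -4.08 (A_52_P526372). The cause of their opposite patterns was not tested. Snai1 lies at chr2:167368073-167368132 on the plus strand and Snai2 at chr16:14709361-14709420 on the plus strand, Twist2 at chr1:93744519-93744577 on the plus strand, Prrx2 at chr2:30736593-30736653 on the plus strand and Foxc2 at chr8:123642693-123642752 on the plus strand. The Zeb2 probes lie at chr2:44842774-44842833 and chr2:44840038-44840097 on the minus strand.
Snai1 A_51_P165087: gtttcacagcagtttaactgtctcagaagg
Snai2 A_51_P305547: gtgaggtacggttaatagccacgcctatat
Twist2 A_51_P165504: ttattgagatattttaccagctaagtgact
Prrx2 A_51_P183746: tgttgggtgctggaagcagttgaacaagtc
Foxc2 A_51_P196444: cacaccaaaagactttaaaatttcaatctc
Zeb2 A_52_P596008: ctgtattttcgactgaaaattccactttct
Zeb2 A_52_P526372: tacgtgggggaaaatatatgtgaaagcaat

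The deleted gene itself was low in both lines labelled Ip6k1-/-. On probe A_51_P103718, Ip6k1 was at 2.46 and 2.61 in Ip6k1+/+ cells and at -1.98 and -1.22 in Ip6k1-/- cells. The other probes, A_51_P213766 and A_52_P413035, were below the background criterion in the Ip6k1-/- lines, so that Ip6k1+/+ was at least 34.1-fold and at least 32.8-fold higher, with the dim side set to the lowest measured signal of its arrays (limma adjusted p = 0.0347 for both). That call was lost in each fit without 1 array, where 0 Ip6k1 probes passed.

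All 9 transition factors were measured in these fibroblasts, and for 8 of them, all but Snai1, lines of 1 genotype differed more than the genotype means, as they did for 80.9% of all gene names. Of the 18 probes, 16 were well above background in both lines of at least 1 genotype and were tested, 14 of them in every line, and none was saturated. None of the 9 genes passed limma's adjusted p of 0.05, against 0.014% of all 14334 gene names tested, and 1, Snai1, had an unadjusted p below 0.05, against 4.42%. A Student t-test per probe, the test the study's methods name for 2 groups in general though not for the arrays, gave 0 of the 9 genes at either threshold. None passed the fold cutoff upward, against 1.49% of gene names, or downward, against 2.5%; that cutoff asked for a 2-fold mean difference with each Ip6k1-/- line at least 0.9 beyond the Ip6k1+/+ mean on the log2 scale. The adjusted p-values over the tested probes lay between 0.994 and 1.00.

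On 1 probe per gene, the brightest, 3 of the 9 genes (Snai1, Snai2 and Zeb1) had both Ip6k1-/- lines below both Ip6k1+/+ lines, against 13.4% of all gene names, and 0 had both above, against 17.7%. The other 6 overlapped between genotypes. A difference was negative for 7 genes and positive for 2, and the median over the 9 was -0.52, against 0.04 over all gene names. With 2 lines against 2, an exact permutation test of 1 gene cannot give a two-sided p below 0.333.

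**Figure D1:**
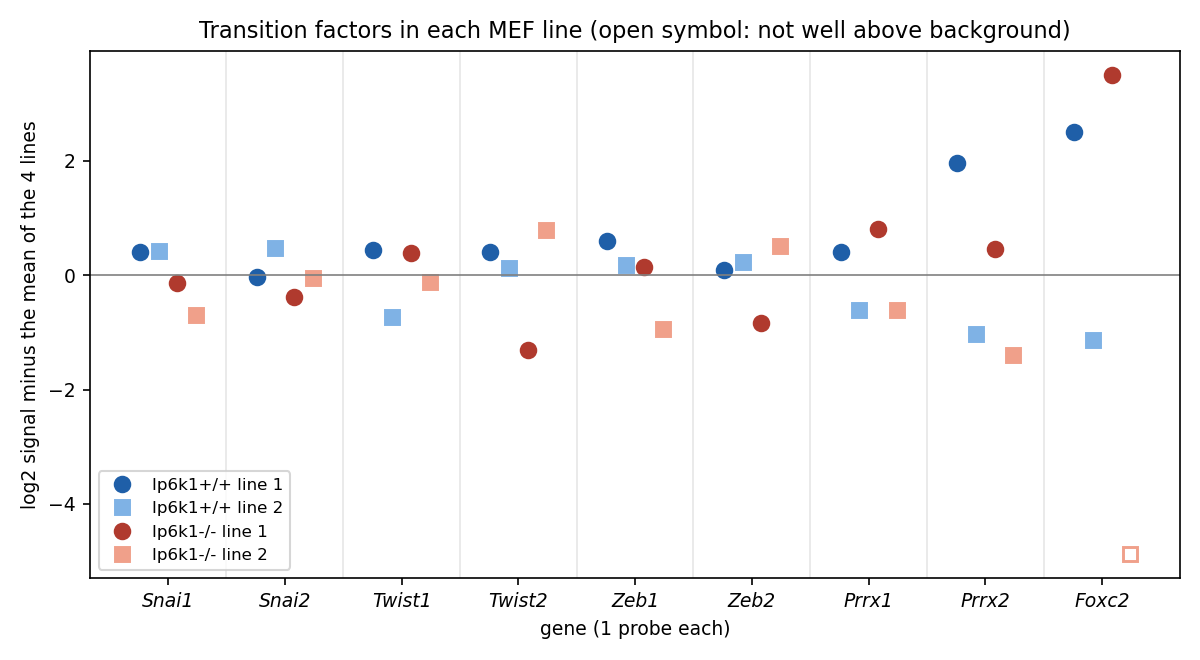
Level of each transition factor in the 4 MEF lines, on the log2 scale relative to the mean of the lines for the same probe (vertical axis), with 1 probe per gene along the horizontal axis; circles are line 1 and squares line 2 of a genotype, blue is Ip6k1+/+, red is Ip6k1-/-, and an open symbol is not well above background. Red lies below blue without overlap for Snai1, Snai2 and Zeb1, while circles lie above squares in both genotypes for Twist1, Zeb1, Prrx1, Prrx2 and Foxc2.

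Among the Snail factors, Snai1, the repressor that starts many such transitions, was the gene whose genotypes stood furthest apart relative to their error. Its level was 2.03 and 2.04 in Ip6k1+/+ cells and 1.48 and 0.92 in Ip6k1-/- cells. The Ip6k1+/+ lines were thus nearly equal, and both Ip6k1-/- lines lay below them. The difference was -0.84 (SE 0.27), a 1.78-fold lower mean, with an unadjusted p of 0.0279 and a limma adjusted p of 0.994.

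Snai2, also called Slug, which is known in neural crest and in fibroblasts, showed the same order with a smaller gap. It was at 3.57 and 4.07 in Ip6k1+/+ and at 3.22 and 3.55 in Ip6k1-/- lines. The higher Ip6k1-/- line came within 0.02 of the lower Ip6k1+/+ line, and the mean difference of -0.43 (SE 0.26) was smaller than the 0.51 between the Ip6k1+/+ lines. The third member of the family, Snai3, was below the background criterion throughout.

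The Twist genes differed in which lines were high. Twist1 (probe A_52_P20906 at chr12:34644411-34644470, plus strand), which is needed for closure of the cranial neural tube and for limb mesenchyme, was at 1.22 and 0.06 in Ip6k1+/+ lines and at 1.18 and 0.67 in Ip6k1-/- lines. The Ip6k1-/- values fell between the 2 Ip6k1+/+ values, with a difference of 0.28 (SE 0.46). Twist2, also called Dermo1 and known from dermal fibroblasts, was at 3.24 and 2.97 in Ip6k1+/+ lines but at 1.52 in Ip6k1-/- line 1 and 3.63 in Ip6k1-/- line 2. Ip6k1-/- line 1 was thus the lowest of the 4 and Ip6k1-/- line 2 the highest, 4.30-fold apart. The Twist2 difference of -0.52 (SE 0.71) rested on Ip6k1-/- line 1, and without that line it was 0.53.

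Of the Zeb repressors, Zeb1 was lower in both Ip6k1-/- lines. Its probe A_52_P546635, on chromosome 18, gave 2.21 and 1.79 in Ip6k1+/+ and 1.75 and 0.67 in Ip6k1-/- lines. The upper Ip6k1-/- line was within 0.04 of the lower Ip6k1+/+ line and the gap lay mainly in Ip6k1-/- line 2, so that the mean difference of -0.79 (SE 0.43) was smaller than the gap of 1.08 between the Ip6k1-/- lines. Without Ip6k1-/- line 2 it was -0.25.

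Zeb2, a partner of Smad proteins and the Zeb factor known from neural crest, had 5 probes, of which 4 were tested. On the brightest, A_52_P596008, it was at 0.33 and 0.47 in Ip6k1+/+ lines and at -0.58 and 0.75 in Ip6k1-/- lines. Ip6k1-/- line 1 was the lowest and Ip6k1-/- line 2 the highest of the 4, as for Twist2. Probes A_51_P121206 and A_52_P587928 also had Ip6k1-/- line 1 at the bottom, at -1.89 and -4.50, with Ip6k1-/- line 2 at -0.48 and -2.39. The 3 differences were between -0.32 and -0.16 and each was smaller than its error.

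Another Zeb2 probe reported a different order. A_52_P526372 starts at base 8169 of the same transcript record on which A_52_P596008 starts at base 5433 and A_51_P121206 at base 4139. It was at -4.06 and -4.11 in Ip6k1+/+ lines, at -3.19 in Ip6k1-/- line 1 and, not well above background, at -4.95 in Ip6k1-/- line 2. The Ip6k1-/- line that was lowest on the other probes was highest here. The fifth probe, A_51_P106893, was well above background in Ip6k1+/+ line 2 alone and was not tested.

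Prrx1, a homeodomain factor of limb and craniofacial mesenchyme, had 6 probes, of which the 3 bright ones gave nearly the same difference between lines. On A_51_P209778 it was at 3.69 and 2.67 in Ip6k1+/+ and at 4.09 and 2.67 in Ip6k1-/- lines. On A_51_P209771 the levels were 3.53 and 2.49 against 3.97 and 2.50, and on A_52_P483713 they were 3.07 and 2.02 against 3.40 and 1.98. In each genotype line 1 stood above line 2, by 1.02 to 1.05 in Ip6k1+/+ and by 1.42 to 1.47 in Ip6k1-/-. Between genotypes the 3 probes differed by 0.15 to 0.22, with errors of 0.59 to 0.61.

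The dim Prrx1 probes kept a part of that order. A_52_P335587 gave -3.00 and -2.85 in Ip6k1+/+ lines and -1.90 and -3.63 in Ip6k1-/- lines, and A_52_P480842 gave -3.24, -2.97, -1.99 and -3.90 in the same order of lines. Ip6k1-/- line 1 was the highest, as on the bright probes, and Ip6k1-/- line 2 the lowest, but the Ip6k1+/+ lines no longer differed by more than 0.27. The remaining probe, A_51_P262972, was well above background in Ip6k1-/- line 1 alone and was not tested.

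**Figure D2:**
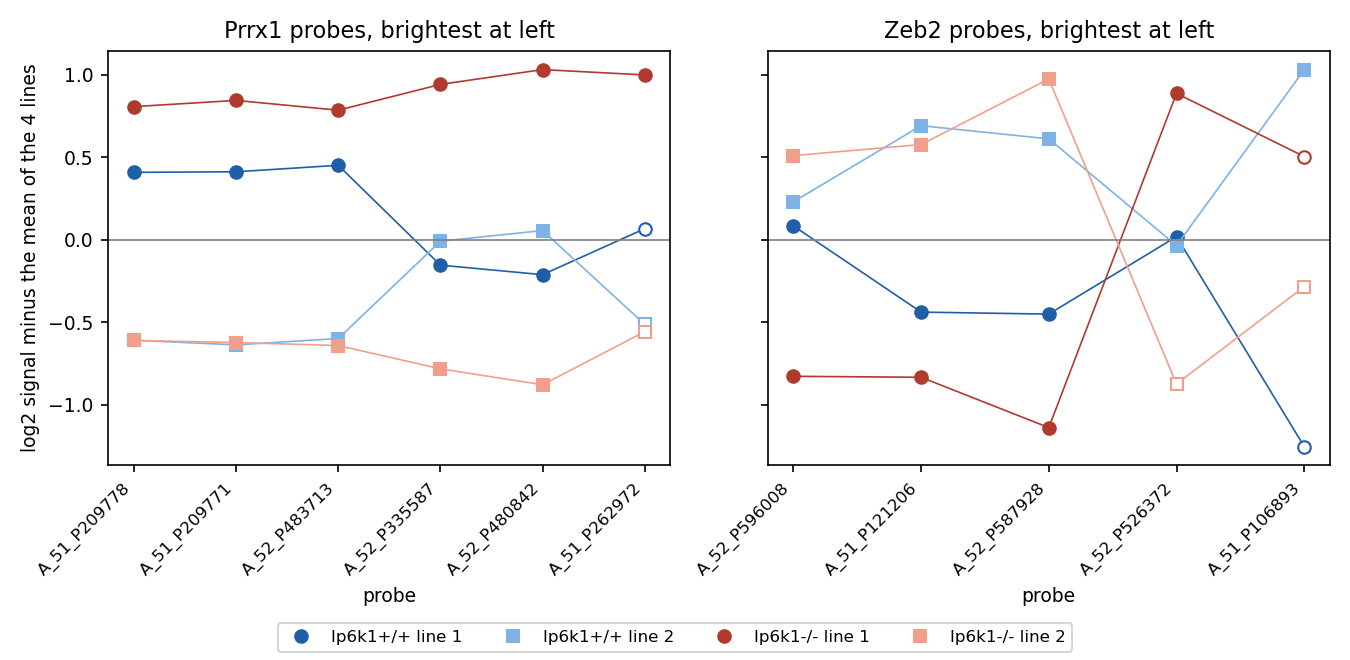
Level of each Prrx1 probe (left) and each Zeb2 probe (right) in the 4 MEF lines, on the log2 scale relative to the mean of the lines for that probe, with probes ordered from bright to dim; circles are line 1, squares line 2, blue Ip6k1+/+, red Ip6k1-/-, open symbols are not well above background, and connecting lines only join values of the same line. The 3 bright Prrx1 probes are nearly superimposed, while Zeb2 probe A_52_P526372 reverses the order of the Ip6k1-/- lines seen on the 3 probes to its left.

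Prrx2, the close relative of Prrx1, varied more. It was at 6.41 in Ip6k1+/+ line 1 and 3.43 in Ip6k1+/+ line 2, and at 4.92 and 3.06 in the Ip6k1-/- lines. Line 1 was 7.90-fold above line 2 in Ip6k1+/+ and 3.63-fold above it in Ip6k1-/-, and the genotypes overlapped. The genotype difference was -0.93 (SE 1.15), and without Ip6k1+/+ line 1 it was 0.56.

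Foxc2, a forkhead factor of paraxial mesoderm and of lymphatic and cardiac valve development, showed the widest spread of the 9. It was at 1.44 and -2.19 in Ip6k1+/+ lines and at 2.45 in Ip6k1-/- line 1, and it was not well above background in Ip6k1-/- line 2, where the signal read -5.93. Line 1 was 12.4-fold above line 2 in Ip6k1+/+. In Ip6k1-/- it was at least 140-fold above line 2, with line 2 set to the lowest signal that its array measured. The fitted difference of -1.36 (SE 2.98) depended on that unmeasured value and became -0.74 with the same substitution and -0.16 with normexp background correction, while without Ip6k1-/- line 2 it was 2.83.

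The gaps between lines were wide in size: 7 of the 9 (all but Snai1 and Snai2) had lines of 1 genotype at least 1 log2 unit apart, against 19.9% of all gene names, and the median of the larger gap between lines was 1.34 against 0.49. The median size of the genotype difference was 0.52 against 0.23. No test of these contrasts with other genes was made.

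**Figure D3:**
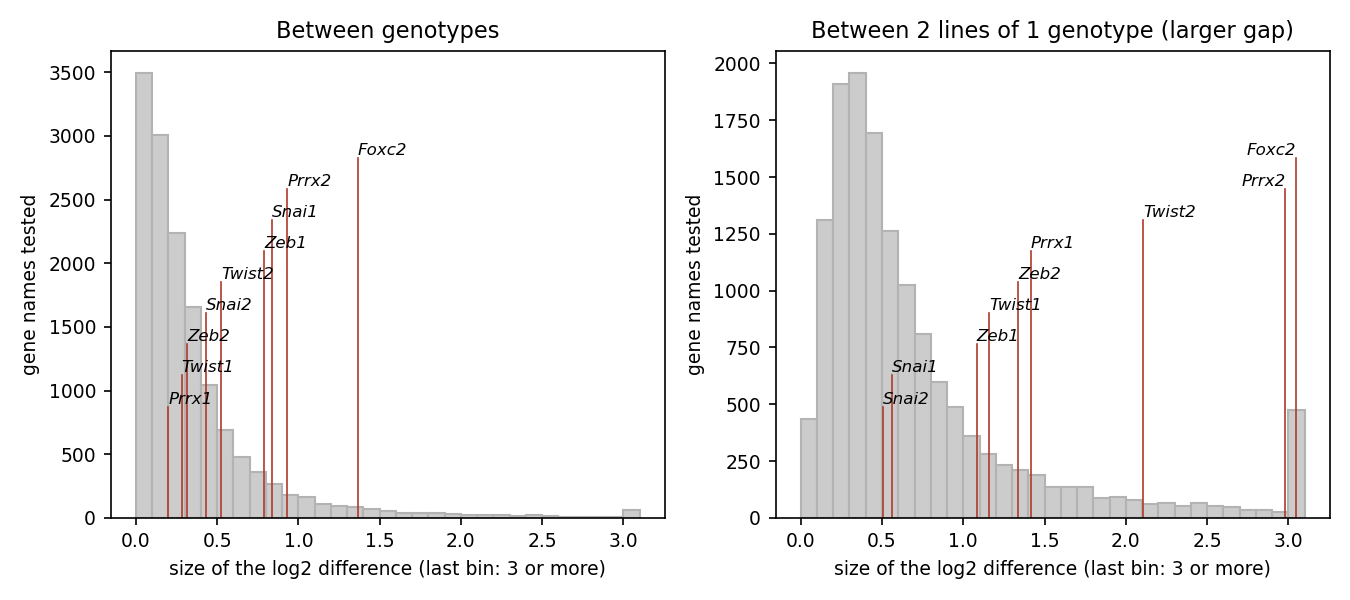
Histograms (grey) of the 14334 gene names tested by the size of the log2 difference between genotype means (left) and by the larger of the gaps between both lines of a genotype (right), with the number of gene names on the vertical axis; red stems mark the transition factors, stem heights only separate the names, and Foxc2 falls in the last bin at right. On the right, 7 of the 9 factors lie at 1 or more.

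Line 1 was above line 2 in both genotypes for 5 genes (Twist1, Zeb1, Prrx1, Prrx2 and Foxc2), and below it in both for Snai2 and Zeb2. Among all gene names, 29.9% had line 1 higher in both genotypes and 33.1% line 2 higher in both. A line number here is a name from the sample labels, and embryo, immortalisation and array cannot be told apart for a line.

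The HLH proteins that pair with Twist were then examined: E proteins, which are its dimer partners, and Id proteins, which lack a DNA-binding region and sequester E proteins. All 7 were measured in every line. On the brightest probe of each, all 7 differences were negative with a median of -0.73. Of the 7, 4 were lower without overlap, against 13.4% of all gene names. Only 1, Id2, passed the fold cutoff downward, against 2.5%. Id2 was at 2.02 and 1.91 in Ip6k1+/+ and at 0.76 and 0.16 in Ip6k1-/- lines, a difference of -1.50 (SE 0.28, unadjusted p = 0.0037), and a second probe gave -1.50 as well. Both Ip6k1-/- lines lay more than 1 log2 unit below both Ip6k1+/+ lines. None of the 7 passed the limma adjusted p of 0.05.

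Id1 and Id3 were lowest in Ip6k1-/- line 2. Id1 was at 3.88 and 4.44 against 3.62 and 2.54, a difference of -1.09 (SE 0.43), and Id3 was at 4.76 and 4.85 against 4.55 and 3.51, a difference of -0.78 (SE 0.38). The Id1 values did not overlap between genotypes, nor did those of Id3. Id4 ran otherwise: it was at -0.25 and 1.09 in Ip6k1+/+, at -2.82 in Ip6k1-/- line 1 and at 2.20 in Ip6k1-/- line 2, the lowest and the highest of the 4, with a difference of -0.73 (SE 1.70). Among E proteins, Tcf3 (E2A) was at 3.18 and 3.16 against 2.71 and 2.60, a difference of -0.52 (SE 0.18, unadjusted p = 0.0394). Tcf4 at -0.21 (SE 0.35) and Tcf12 at -0.18 (SE 0.32) overlapped between genotypes. A dimmer Tcf12 probe, A_52_P859153, went the other way without overlap. It was at -2.11 and -1.37 against -1.23 and -1.23, a difference of 0.51 (SE 0.36).

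**Figure D4:**
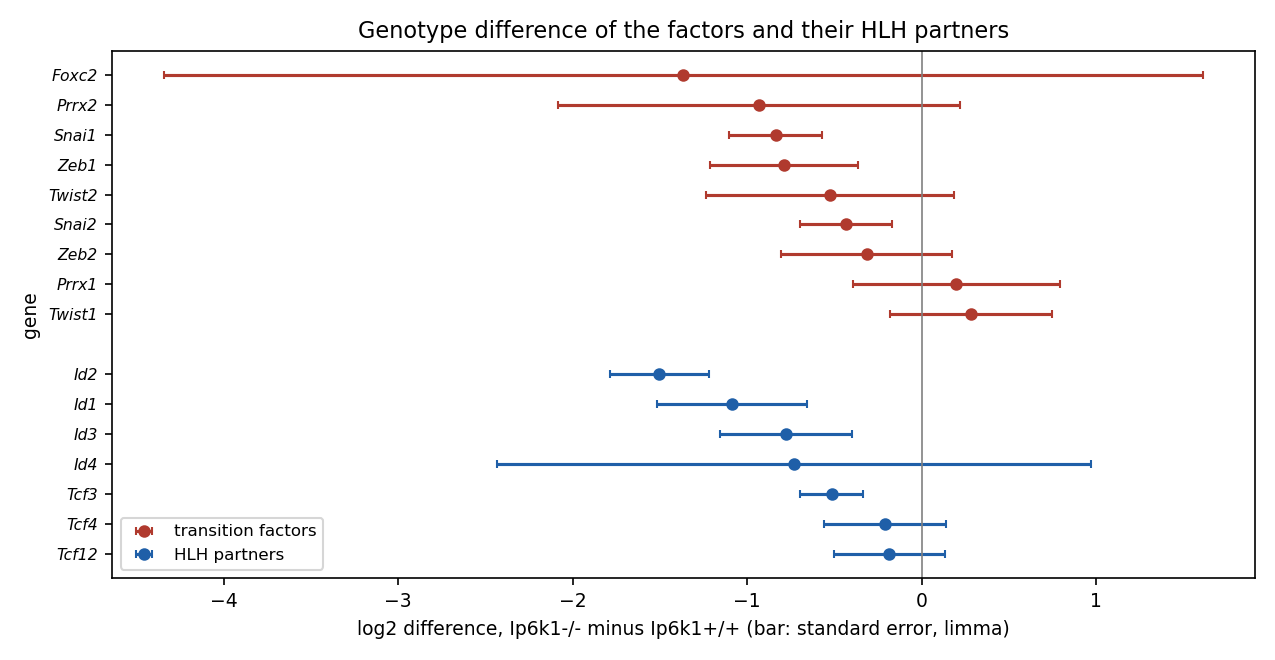
Log2 difference between genotypes (Ip6k1-/- minus Ip6k1+/+, horizontal axis) with its standard error from limma, on the brightest tested probe of each transition factor (red) and HLH partner (blue) named along the vertical axis. All 7 HLH partners lie below 0, and Id2 lies at -1.50 with an error of 0.28, while Foxc2 has an error of 2.98.

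Of 24 factors related to the 9 by family or by expression in the same mesenchyme, 15 were tested, none passed the limma adjusted p of 0.05, 13 differences were negative and the median was -0.64. Foxc1, the nearest relative of Foxc2, was at 2.49 and 0.99 in Ip6k1+/+ and at 1.26 and 0.13 in Ip6k1-/- lines. Its difference of -1.04 (SE 0.64) came with overlapping genotypes, and line 1 lay above line 2 in both genotypes, as for Foxc2.

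Corepressors of the Snail, Zeb and Twist proteins were examined in 1 list with genes that regulate the stability of those proteins. Of 25, 24 were tested and measured in every line. None passed the fold cutoff, against 1.49% of all gene names upward and 2.5% downward. The median difference was 0.12 with 19 positive. On the brightest probe, 4 were higher without overlap, against 17.7%, and 1 was lower, against 13.4%. Ctbp1 and Ctbp2, corepressors bound by the Zeb factors, differed by 0.10 (SE 0.19) and 0.21 (SE 0.21). Loxl2, a lysyl oxidase that binds Snai1, was at 3.23 and 5.16 against 2.59 and 3.74, and its difference of -1.03 (SE 0.75) lay within the spread between lines.

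The epithelial genes that these factors silence were measured in part. Cdh1 failed the background criterion in all 4 lines, and this held for 8 of the 24 epithelial targets and for 8 of the 15 epithelial regulators on the array. Of the 14 targets tested, none passed the fold cutoff, against 1.49% of all gene names upward and 2.5% downward, 11 differences were positive and the median was 0.44. With the mean difference alone, 3 targets passed upward and 0 downward. Leaving out single arrays let targets pass in either direction. The share of all gene names under these looser rules was not computed. F11r, which encodes the junctional adhesion molecule JAM-A, was at 2.90 and 2.63 in Ip6k1+/+ and at 3.52 and 3.94 in Ip6k1-/- lines, a difference of 0.97 (SE 0.24, unadjusted p = 0.011). Of 5 epithelial regulators tested, 1 passed the cutoff: Esrp2, an epithelial splicing regulator, was at -3.74 and -4.11 against -2.62 and -2.70, a difference of 1.26 (SE 0.33, unadjusted p = 0.014) near the lower end of measured signals. A second Esrp2 probe gave 0.72 with overlapping lines.

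Mesenchymal genes activated in such transitions were measured in nearly all cases, 26 of 28, with 1 past the fold cutoff upward, against 1.49% of all gene names, and 2 downward, against 2.5%. On the brightest probe, 6 of the 26 were lower without overlap, against 13.4%, and 1 was higher, against 17.7%. With the mean difference alone, 6 were past the cutoff downward and 1 upward, and the share of all gene names under that rule was not computed. Pdgfrb, the receptor for platelet-derived growth factor B, was at 4.68 and 4.45 in Ip6k1+/+ and at 3.34 and 3.39 in Ip6k1-/- lines, a difference of -1.20 (SE 0.19, unadjusted p = 0.00164). Col3a1, a fibrillar collagen, was at 6.25 and 5.90 against 5.46 and 4.17, a difference of -1.26 (SE 0.46, unadjusted p = 0.0441). Both had their Ip6k1-/- lines below their Ip6k1+/+ lines, but of the pair only Pdgfrb passed the fold cutoff. Tnc, a matrix glycoprotein, passed the cutoff on 1 of 3 probes (-1.58) and Ncam1, a neural cell adhesion molecule, on 1 of 8 (1.16). On its brightest probe each overlapped between genotypes. The Ncam1 probe that passed overlapped too, at -5.32 and -2.86 in Ip6k1+/+ against -3.12 and -2.74 in Ip6k1-/- lines. Its value in Ip6k1+/+ line 1 was not well above background. Larger mean differences that missed the cutoff were those of the matrix protease Mmp2, -2.23 (SE 1.42), which was low in Ip6k1-/- line 2 alone, and of Postn, periostin, -1.59 (SE 0.74), which did not overlap; both were chosen after their values were seen.

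The standard marker Cdh2, which encodes N-cadherin, differed by 0.28 (SE 0.58) and Fn1, fibronectin, by -0.29 (SE 0.19). The bright Vim probe was saturated on 3 arrays, and its difference is not given. Over the mesenchymal genes the median difference was 0.01, but over the 23 genes with an unsaturated probe it was -0.29, with 16 negative and 7 positive.

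By detection, the fibroblast label held in all lines: 8 of 8 fibroblast markers were well above background in every line. The levels of some differed between lines. Thy1 was at 1.42 and 6.02 in Ip6k1+/+ and at 3.98 and 5.52 in Ip6k1-/- lines. Pdgfra was at 0.21 and -2.19 against -1.08 and -2.33. Pdgfrb, Col3a1 and Fn1, 3 of the 8, were lower in Ip6k1-/- without overlap on their brightest probe, against 13.4% of all gene names. Of markers of other cells, 4 of 8 epithelial genes, 1 of 4 endothelial, 1 of 4 leukocyte, 1 of 4 neural crest and glial and 0 of 4 skeletal muscle genes were tested, and the defining genes Cdh1, Pecam1, Cdh5, Ptprc and Myod1 were below the background criterion throughout. Of the epithelial genes, the keratins Krt19, at 1.93 and 0.31 in Ip6k1+/+ and 1.90 and 2.35 in Ip6k1-/- lines, and Krt18, at -0.65 and 1.57 against -1.35 and 0.55, were measured in every line and overlapped between genotypes. The claudin gene Cldn7 was at -4.75 and -4.31 against -2.05 and -4.00. The endothelial gene Kdr was at -3.65 and -3.99 in Ip6k1+/+ and at -2.94 and -1.59 in Ip6k1-/- lines, and the leukocyte gene Cd68 was at -3.06 and -2.63 against -1.82 and -2.52. Cldn7, Kdr and Cd68 were higher in the Ip6k1-/- lines without overlap, against 17.7% of all gene names. All of them were dim, on arrays whose lowest signals well above background were at -5.19 to -4.67. The part of Cldn7, Kdr and Cd68 in the lower Snai1, Snai2 and Zeb1 levels was not tested.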

How the data were processed

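Transcripts of 4 MEF lines, 2 per genotype, were measured. The authors deposited spot intensity as given by Agilent Feature Extraction 10.5.1.1, linear and background-corrected, and a log2 table that GeneSpring had shifted to the 75th percentile. Here log2 of the deposited processed intensity was taken, outlier-marked spots (96 to 133 of 43379 per array) were left out, saturated spots kept, the 75th percentile (607 to 746 on the intensity scale) subtracted and spots of a probe averaged. The share of probes well above background was 52.0% to 55.5%. The 21572 probes well above background on both arrays of a genotype were tested in limma 3.58.1 (R 4.3.3; lmFit, then eBayes with trend), and p-values were adjusted over all of them by Benjamini-Hochberg. On simulated data with planted changes, the check required only that the median fitted difference lie close to the planted one. It set no requirement on changes recovered or on false calls. Precision is limited by the number of arrays, and p-values measure the spread between these lines.

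Gene names are those of the array, and 13 of 18 probe accessions matched the same symbol in the RefSeq table. The genes and lists were chosen with earlier results of these data known. Named are all 9 factors, Ip6k1, Cdh1, Cdh2, Vim, Fn1, Tcf3, Tcf4, Tcf12, Id1, Id2, Id3, Foxc1, Snai3, Ctbp1, Ctbp2 and Loxl2. From each list, up to 4 genes past the fold cutoff and up to 2 with an unadjusted limma p below 0.05 are named too. Id4, Mmp2, Postn and the list genes of the closing section were added after their values were seen. Kdr, Cd68, Cldn7, Krt5, Krt18, Krt19 and the absent markers come from the marker lists. Some genes of the related factors are not reported here. Alternatives were normexp, quantile and median normalization, other filters, the deposited log2 values, a replicate block, no variance trend, another fold rule, averaging probes and leaving out arrays.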

Additional observations from a re-analysis of the deposited data

How the results depend on the processing

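No transition factor passed limma's adjusted p of 0.05 in any setting, with or without the replicate block, and the lowest adjusted p of a member probe was 0.478. The block gave 0 genes past the adjusted and 3 past the unadjusted threshold, against 1 without it. The share of all gene names past the unadjusted threshold with the block was not computed. Line differences of the genotypes correlated at r = 0.50 across 14334 gene names, which share the 4 arrays, and with 2 pairs the labels do not establish a pairing. Of 190 recomputed probe differences 169 kept their direction, and 21 reversed, 20 of them on leaving out an array. Normexp correction took Zeb2 probe A_52_P587928 to 0.012. The mean difference alone, with no condition on single lines, put 1 gene, Foxc2, past the fold cutoff downward. Leaving out single arrays let factors pass it in either direction. The share of all gene names past it under these looser rules was not computed. Over the 9 genes, the median ranged from -0.66 to -0.25 on leaving out each array in turn.

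Leaving out each array gave -1.58 to 0.53 for Twist2, -0.30 to 0.86 for Twist1, -2.42 to 0.56 for Prrx2 and -5.56 to 2.83 for Foxc2. For the Prrx1 probes it gave -0.51 to 0.91 (A_51_P209778), -0.51 to 0.96 (A_51_P209771), -0.57 to 0.86 (A_52_P483713), -0.70 to 1.02 (A_52_P335587) and -0.80 to 1.11 (A_52_P480842). For Zeb2 it gave -0.98 to 0.35 (A_52_P596008), -0.96 to 0.45 (A_51_P121206), -1.22 to 0.89 (A_52_P587928) and -0.87 to 0.89 (A_52_P526372). Snai1, between -1.12 and -0.56, Snai2, between -0.69 and -0.18, and Zeb1, between -1.33 and -0.25, stayed negative. The causes were not tested. The 2 Ip6k1 probes past the adjusted threshold became 0 with normexp, quantile normalization, no filter or a filter on all 4 arrays, and 0 to 0 without 1 array, where a lone line is assumed to vary like the others; the filter on all 4 arrays removes both probes by construction.

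Limits are the 2 lines per genotype, 1 array each, and the dependence of 7 of the 9 genes on 1 oligonucleotide. Counts in the other lists were recomputed in the same settings, which was decided once the data had been seen, as were the median over unsaturated probes and the Foxc2 value with a line set to its array's lowest measured signal. Past the fold cutoff, Esrp2 and the Ncam1 probe fell out under normexp, and the Ncam1 probe under the filter on all 4 arrays too. That filter also leaves Foxc2 without a tested probe. The mean difference alone gave 6 mesenchymal genes and 2 HLH partners downward, and 3 epithelial targets upward. In the opposite directions it gave 1, 0 and 0, and the share of all gene names under that rule was not computed. Leaving out single arrays moved these counts, and epithelial targets then passed downward too.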

Other observations

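Some related factors, named here after their values were seen, had line 1 above line 2 in both genotypes, as Prrx1, Prrx2 and Foxc2 did. Msx1, a homeobox gene of limb and craniofacial mesenchyme, was at 2.66 in Ip6k1+/+ line 1 and -2.75 in Ip6k1+/+ line 2, and at 1.64 and -3.00 in the Ip6k1-/- lines. Foxf2, a forkhead gene of palate and gut mesenchyme, was at 0.63 and -1.90 against -0.52 and -3.02. In both, line 1 lay above line 2 in each genotype by more than the genotypes differed. Of the 15 related factors tested, 10 had line 1 higher in both genotypes, against 29.9% of all gene names. For 2 of the 15, line 2 was higher in both, against 33.1%.

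Cdh11, the mesenchymal cadherin, was lowest in Ip6k1-/- line 1, where Twist2 and the bright Zeb2 probe were also lowest. On its brightest probe it was at 2.09 and 3.21 in Ip6k1+/+ lines and at -0.52 and 3.04 in Ip6k1-/- lines, with a difference of -1.39 (SE 1.23). The size depended on the probe. A_52_P437795 gave a difference of -1.10 (SE 1.06). A_52_P683146 gave 1.61 and 1.85 against 1.09 and 1.95, a difference of -0.21 (SE 0.35).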
